A study of Mus musculus with 12 samples.

Results

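Embryonic globins and genes of primitive red cells were followed in dissected mouse neural tubes over 1 day of gestation. The group held 8 genes chosen by name, Hba-x, Hba-a1, Hbb-y, Hbb-bh1, Slc4a1, Gata1, Klf1 and Alas2, and every probe set that names only 1 of them, which gave 14 of 45037 probe sets and 8 of 18193 genes. Total RNA from micro-dissected neural tubes of ICR (CD-1) embryos, an outbred stock with no other treatment or allele named, was hybridised to Affymetrix mouse arrays at gestation days 8.5, 9.0 and 9.5 (GD8.5, GD9.0, GD9.5), counted from the vaginal plug as day 0. The labels give 4 biological replicates per stage, and do not say whether a replicate is 1 embryo, 1 litter or a pool, so p-values measure the spread between these samples. Values are given as deposited, on a log2 scale, for 10 arrays, 2 of them from GD8.5 (replicates 3 and 4) and 4 from each later stage. GD8.5 replicates 1 and 2 were deposited as linear intensities and are used only by rank.

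The first red cells of the mouse arise in the blood islands of the yolk sac and enter the embryo when the heart starts to beat, as nucleated primitive erythroblasts that mature in the circulation. Their haemoglobin joins alpha-type chains, the embryonic zeta chain of Hba-x and the adult-type alpha chain of Hba-a1 and Hba-a2, with beta-type chains, the embryonic chains of Hbb-bh1 and Hbb-y, and as these cells mature they are known to shift from Hbb-bh1 to Hbb-y and from Hba-x to alpha. Gata1 is the zinc finger factor that drives erythroid genes, Klf1 is a Krueppel-like factor that activates globin, membrane and haem genes, Alas2 makes the first enzyme of haem synthesis in red cells, and Slc4a1 encodes band 3, their anion exchanger. The neural tube itself is not known as a site of red cell formation. In bulk tissue a change in the number of such cells and a change in RNA per cell cannot be told apart.

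The windows just before the transcription starts are shown because the factors Gata1 and Klf1 are members of the group along with genes they are known to bind. RefSeq windows of build GRCm38.p6 were matched for 6 members, and the 200 bases before the start are printed 5′ to 3′ on the gene's own strand. Capitals mark any of 4 GATA words, on either strand. These are the word AGATAA, the variant that starts with T, which is TGATAA, and the forms of both that end in G, which are AGATAG for the first and TGATAG for the second. Capitals also mark CACCC, the core of Krueppel-like factor sites, on either strand.
Hba-x: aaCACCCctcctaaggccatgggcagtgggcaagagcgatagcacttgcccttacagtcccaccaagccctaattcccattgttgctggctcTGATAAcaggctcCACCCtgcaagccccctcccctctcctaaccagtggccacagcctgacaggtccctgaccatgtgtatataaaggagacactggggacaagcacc
Hba-a1: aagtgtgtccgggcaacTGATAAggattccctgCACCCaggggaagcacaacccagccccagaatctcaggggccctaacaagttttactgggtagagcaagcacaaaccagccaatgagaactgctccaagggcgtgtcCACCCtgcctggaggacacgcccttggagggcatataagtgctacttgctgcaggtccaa
Hbb-y: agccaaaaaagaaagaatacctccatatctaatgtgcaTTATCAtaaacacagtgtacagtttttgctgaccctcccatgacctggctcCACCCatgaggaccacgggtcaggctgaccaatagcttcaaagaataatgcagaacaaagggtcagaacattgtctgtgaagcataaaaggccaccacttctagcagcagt
Klf1: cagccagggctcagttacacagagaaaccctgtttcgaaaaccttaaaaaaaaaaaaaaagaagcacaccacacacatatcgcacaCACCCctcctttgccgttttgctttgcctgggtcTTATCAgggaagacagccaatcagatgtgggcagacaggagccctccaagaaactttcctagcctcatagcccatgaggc
Alas2: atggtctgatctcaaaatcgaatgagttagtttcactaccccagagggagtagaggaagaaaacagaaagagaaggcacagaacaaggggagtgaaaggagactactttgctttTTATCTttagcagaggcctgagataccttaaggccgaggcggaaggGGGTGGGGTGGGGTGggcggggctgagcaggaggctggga
Gata1: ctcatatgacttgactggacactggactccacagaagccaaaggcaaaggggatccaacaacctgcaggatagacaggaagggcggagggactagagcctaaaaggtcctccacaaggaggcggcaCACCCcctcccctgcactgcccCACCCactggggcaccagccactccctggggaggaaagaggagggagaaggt

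The Hba-x window lies at chr11:32276400-32276599 on the plus strand and that of Hba-a1 at chr11:32283472-32283671, also plus. The Hbb-y window lies at chr7:103853208-103853407 on the minus strand, that of Klf1 at chr8:84901782-84901981 (plus), that of Alas2 at chrX:150547217-150547416 (plus) and that of Gata1 at chrX:7967911-7968110 (minus). A GATA word was found in 5 of the 6 windows, all but that of Gata1, and CACCC in 6 of 6. Among 32843 RefSeq windows of this length, 21.4% held a GATA word, 45.5% held CACCC and 8.19% held both. TGATAA was the word in Hba-x, Hba-a1, Hbb-y and Klf1 (6.18% of all windows), and AGATAA in Alas2 (7.8%). The longer word CCNCNCCC, which can overlap CACCC, was in 3 of 6 windows (42.6% of all), CCAAT in 3 of 6 (29.4%) and TATAAA in the Hba-x window alone (9.96%). These matches describe letters in a window and are not evidence of binding.

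**Figure D1:**
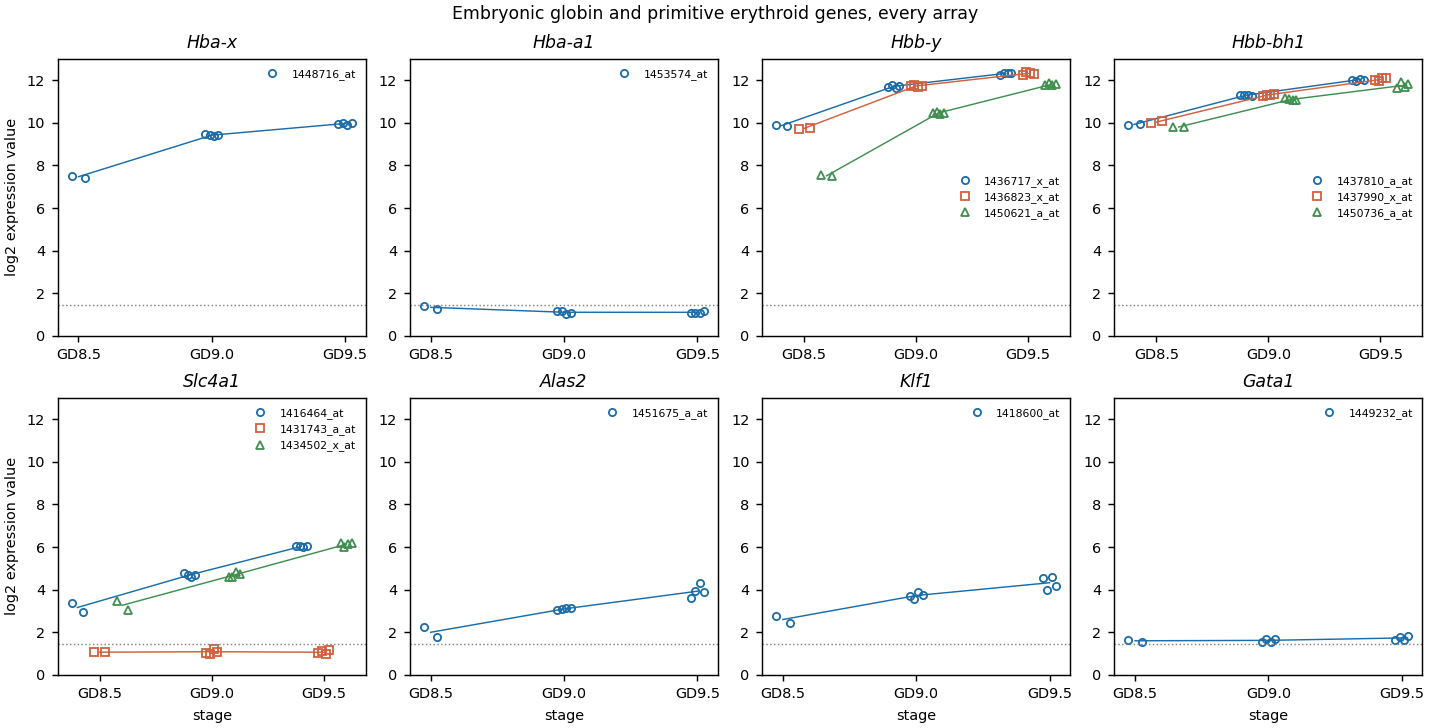
Log2 expression value (vertical axis) of every single-gene probe set of the 8 genes in each of the 10 log2 arrays by stage (horizontal axis). Points are arrays, lines join stage means and the dotted line is the background level of 1.43. Hba-x, Hbb-y, Hbb-bh1, 2 of 3 Slc4a1 probe sets, Alas2 and Klf1 climb at both steps, while Hba-a1 and the third Slc4a1 probe set lie under the dotted line.

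Between GD8.5 and GD9.0 the embryonic globins, band 3, Klf1 and Alas2 all rose, and between GD9.0 and GD9.5 they rose again. In each interval 11 of the 14 probe sets, from 6 of the 8 genes, were higher and 0 lower. All probe sets of the array were tested in 1 limma fit with Benjamini-Hochberg adjustment at 0.05, which called 4.28% of them higher and 3.68% lower in the first interval, and 8.93% higher and 8.1% lower in the second. The rises ran from 1.10 to 2.96 on the log2 scale in the first interval and from 0.55 to 1.44 in the second, against medians over all probe sets of 0.0040 and -0.019. Of the 14 probe sets, 11 had GD9.0 arrays that all lay above both GD8.5 arrays and 1, that of Hba-a1, had them all below, as did 15.5% and 13.5% of all probe sets. Between GD9.0 and GD9.5 the arrays lay apart upwards for 11 and downwards for 0 (10.6% and 10.5% of all). Over the whole day this was so for 12 and 1 (18.6% and 19.6% of all). The 3 probe sets that did not pass were those of Hba-a1 and Gata1 and 1 of Slc4a1.

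Hba-x, the zeta chain, is measured by 1 probe set (1448716_at). It stood at 7.52 and 7.42 in the GD8.5 arrays, then at 9.48, 9.43, 9.38 and 9.41 in those of GD9.0, and lastly at 9.95, 10.02, 9.93 and 10.01. The 3 stages did not overlap, and the step from GD8.5 was many times the spread within a stage. The gene rose 3.87-fold in the first interval (log2 change 1.95 ± 0.07 SE, limma adjusted p = 4e-09) and a further 1.46-fold in the second (0.55 ± 0.06, limma adjusted p = 3.48e-05).

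Hbb-y, the epsilon-y chain, has 3 probe sets, and they gave different sizes of change. The probe set 1450621_a_at read 7.54 and 7.49 at GD8.5, 10.49, 10.52, 10.43 and 10.46 at GD9.0, and 11.76, 11.86, 11.79 and 11.82 at GD9.5. This was a 7.75-fold rise and then a 2.51-fold rise (2.96 ± 0.06 SE and 1.33 ± 0.05), and over the day the probe set was 19.5-fold higher (4.29 ± 0.06, limma adjusted p = 1.78e-12). By size of rise it stood in place 2 among all probe sets in the first interval and in place 4 over the day. The probe set 1436717_x_at read 9.92 and 9.84, then 11.67 to 11.79, then 12.26 to 12.36, a 5.47-fold rise over the day, and 1436823_x_at rose by 2.585 on the log2 scale. These last probe sets carry the suffix _x_at, which Affymetrix gives where probes may also match other transcripts.

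At GD9.5 the bright Hbb-y probe sets reached the top of the measured range. In every GD9.5 array they lay at or above the percentile 99.98 of probe sets, with a best place of 2, and the highest probe set of an array read 12.45, 12.53, 12.43 and 12.47. Within each array, the difference between 1436717_x_at and 1450621_a_at shrank from 2.36 at GD8.5 to 1.24 and 0.52 at the later stages. Whether the top of the scale held the bright probe sets back was not tested.

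Hbb-bh1, the beta-h1 chain, rose in its 3 probe sets by similar amounts. The probe set 1437810_a_at read 9.90 and 9.95 at GD8.5, 11.32, 11.30, 11.31 and 11.27 at GD9.0, and 12.03, 11.96, 12.08 and 12.03 at GD9.5. It was 2.59-fold and then 1.66-fold higher (1.37 ± 0.06 SE and 0.73 ± 0.05, limma adjusted p = 5.4e-08 and 2.53e-06). Over the day the 3 probe sets rose 4.29-, 4.00- and 3.86-fold. Arrays of different stages did not overlap in any of them. At GD9.5 they lay at percentiles 99.81 to 99.97 of probe sets, also near the top of the measured range.

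**Figure D2:**
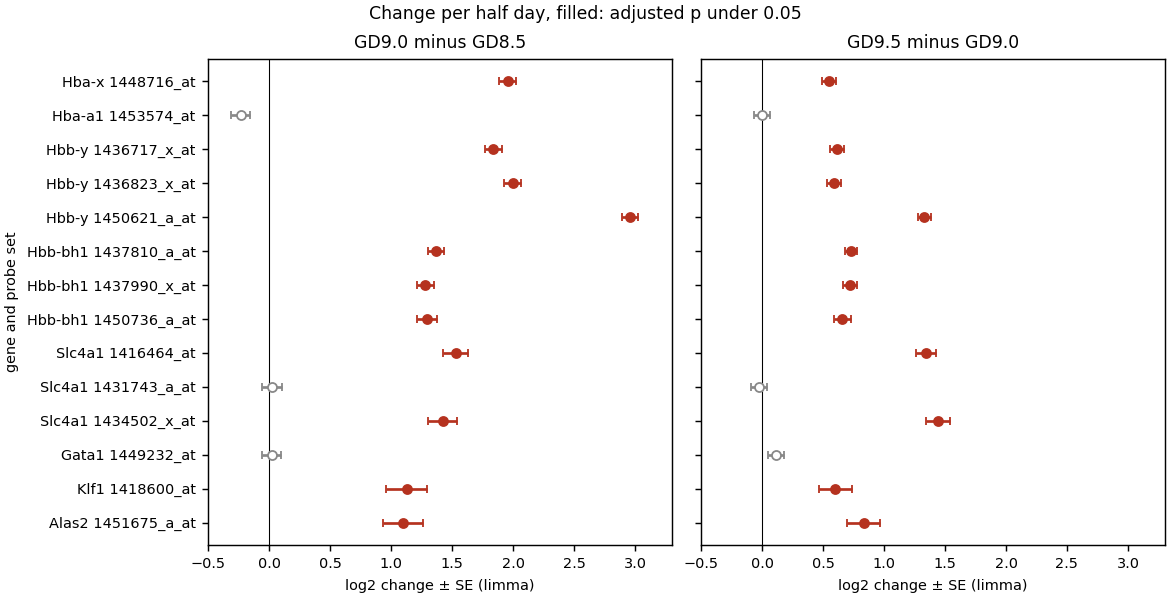
Log2 change with its standard error from limma (horizontal axis) for each of the 14 probe sets (vertical axis), GD9.0 minus GD8.5 on the left and GD9.5 minus GD9.0 on the right; filled points have an adjusted p under 0.05. The points of Hba-x, Hbb-y and Hbb-bh1 sit further right in the left panel, from 1.28 to 2.96, than in the right one, from 0.55 to 1.33, while the called Slc4a1 points sit at 1.42 and 1.53 on the left and at 1.35 and 1.44 on the right.

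The rise of the embryonic globins was larger in the first interval than in the second. The difference between the 2 intervals was tested as a contrast of its own, and 7 of the 14 probe sets, all those of Hba-x, Hbb-y and Hbb-bh1, had a smaller rise in the second interval (limma adjusted p from 2.24e-06 to 0.0118), where 3.52% of all probe sets were called in that direction and 3.79% in the other (3.45% and 5.77% of genes by their brightest probe set). The second rise fell short of the first by 1.40 ± 0.10 SE for Hba-x, by 1.23 to 1.63 for Hbb-y and by 0.56 to 0.64 for Hbb-bh1 on the log2 scale. The Hbb-y and Hbb-bh1 probe sets lay near the top of the measured range at GD9.5. Whether this made their second rise smaller was not tested. For Slc4a1 the difference was -0.18 ± 0.15 and 0.020 ± 0.18 in its called probe sets, for Klf1 it was -0.53 ± 0.26 and for Alas2 -0.26 ± 0.25, and none of these passed. Their 95% intervals from the same fit, -0.51 to 0.15, -0.38 to 0.42, -1.09 to 0.035 and -0.82 to 0.29, all include 0 and reach further below it than above for 3 of the 4.

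Slc4a1 rose by near-equal steps. Its probe set 1416464_at read 3.36 and 2.96 at GD8.5, 4.76, 4.69, 4.59 and 4.69 at GD9.0, and 6.04, 6.04, 5.996 and 6.05 at GD9.5. That is a 2.88-fold and then a 2.54-fold rise (1.53 ± 0.10 SE and 1.35 ± 0.08, limma adjusted p = 1.06e-06 and 5.77e-07). The probe set 1434502_x_at gave 2.68-fold and 2.72-fold. The probe set 1431743_a_at stayed between 0.97 and 1.23 in all 10 arrays, under the background level, and gives no measure of the gene. That level, 1.43, is the value under which 95% of 39 olfactory receptor genes lie, a family not known to be used in this tissue.

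Alas2, the haem synthesis enzyme, read 2.23 and 1.76 at GD8.5, 3.03, 3.07, 3.12 and 3.15 at GD9.0, and 3.59, 3.94, 4.30 and 3.87 at GD9.5. It rose 2.14-fold and then 1.78-fold (1.10 ± 0.17 SE and 0.83 ± 0.14, limma adjusted p = 0.00126 and 0.00112). The arrays of the 3 stages did not overlap, although those of GD8.5 and GD9.5 were spread more widely (SD 0.33 and 0.29) than those of GD9.0 (SD 0.05).

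Of the transcription factors, Klf1 rose and Gata1 did not pass the test. Klf1 read 2.77 and 2.42 at GD8.5, 3.71, 3.54, 3.89 and 3.74 at GD9.0, and 4.55, 3.98, 4.59 and 4.17 at GD9.5. It was 2.18-fold and then 1.52-fold higher (1.13 ± 0.17 SE and 0.60 ± 0.14, limma adjusted p = 0.00113 and 0.00961). With all 12 arrays after log2 and quantile normalization its second step was 0.53 and no longer passed (limma adjusted p = 0.221). Gata1 read 1.64 and 1.55, then 1.56 to 1.68, then 1.65 to 1.84, barely above the background level with neighbouring stages that overlapped. Its change over the day was 0.13 ± 0.08 SE, with a 95% interval of -0.040 to 0.31, while the smallest called change over the day among the members was 1.73. The GD9.5 arrays lay above both GD8.5 arrays by a small margin, 1.65 against 1.64. How a change in Gata1 RNA reads out this close to background was not tested.

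The only single-gene probe set of Hba-a1 (1453574_at) read 1.41 and 1.26 at GD8.5, 1.01 to 1.18 at GD9.0 and 1.07 to 1.17 at GD9.5. All 3 stage means lay under the background level, so it gives no fold change. The adult-type alpha chain is read instead by 3 probe sets that name both Hba-a1 and its near-identical neighbour Hba-a2, which fall outside the single-gene rule. All 3 rose in both intervals. As for Hbb-y, the suffix _x_at marks probe sets whose probes may also match other transcripts. The probe set 1417714_x_at went from 6.74 and 6.67 to 8.82 to 8.96 and then 9.999 to 10.13 (2.17 ± 0.07 and 1.19 ± 0.06 SE), 1452757_s_at rose by 0.96 ± 0.07 and 0.85 ± 0.05, and 1428361_x_at by 0.52 ± 0.07 and 0.85 ± 0.06.

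Whether 2 members changed unequally was asked from their difference within each array, which a shift of a whole array does not move. Levels of different probe sets are not set against each other, and the test is an exact two-sided permutation of the arrays, with p-values adjusted over 12 tests (4 pairs, 3 stage pairs). With 2 against 4 arrays the smallest p is 0.0667 and with 4 against 4 it is 0.0286. With these floors no adjusted value could fall under 0.05, so the test could not call any pair. The lowest adjusted value was 0.08. Hbb-y minus Hbb-bh1, from the brightest probe set of each (1436717_x_at and 1437990_x_at), averaged -0.16 ± 0.09 at the first stage (SD, n = 2), then 0.40 ± 0.05 and lastly 0.29 ± 0.09 (SD, both with n = 4). The first step, 0.56, separated the stages without overlap (exact p = 0.0667, adjusted 0.08), and the second, -0.11, did not (exact p = 0.0857).

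The first step of this pair went the same way whichever probe sets were used, and the second did not. Over the 9 combinations of their probe sets, a set of comparisons added after the values had been seen, as were those with the shared alpha probe sets, Hbb-y gained on Hbb-bh1 from GD8.5 to GD9.0 in 9 of 9, by 0.47 to 1.68. From GD9.0 to GD9.5 it gained in the 3 combinations with 1450621_a_at by 0.60 to 0.67 (exact p = 0.0286, adjusted over 45 tests 0.079), and changed by -0.14 to -0.046 in the other combinations. In these 45 tests too, the array numbers allowed no adjusted value under 0.05.

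**Figure D3:**
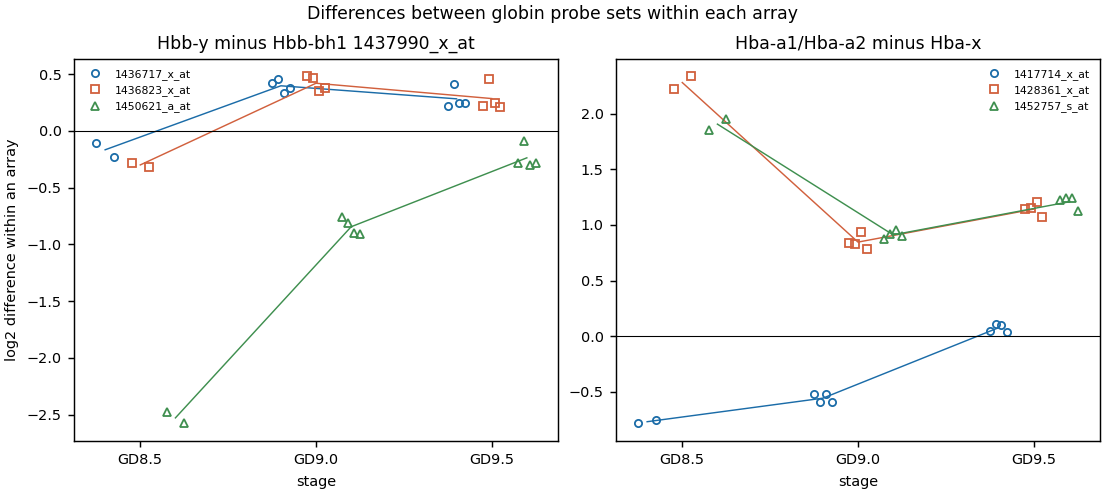
Difference in log2 value within each array (vertical axis) by stage (horizontal axis), for each Hbb-y probe set minus Hbb-bh1 1437990_x_at on the left and each probe set shared by Hba-a1 and Hba-a2 minus Hba-x on the right; points are arrays and lines join stage means. All 3 lines on the left climb from GD8.5 to GD9.0, and the green one, 1450621_a_at, also climbs to GD9.5; on the right 1 line climbs at both steps and 2 drop first, by 0.99 and 1.43.

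For the alpha-type chains the probe sets did not give 1 direction at the first step. From GD8.5 to GD9.0 the shared Hba-a1 and Hba-a2 probe sets minus Hba-x changed by 0.21, -0.99 and -1.43. From GD9.0 to GD9.5 all 3 gained on Hba-x, by 0.64, 0.30 and 0.30 (exact p = 0.0286 for all 3, adjusted over the same 45 tests 0.079). The planned Hba-a1 minus Hba-x difference rests on the Hba-a1 probe set under background and moved by -2.19 and -0.55. Klf1 minus Gata1 widened by 1.11 and 0.49 (exact p = 0.0667 and 0.0857). Slc4a1 (1434502_x_at) minus Klf1 widened by 0.30 and 0.84 (exact p = 0.0667 and 0.0286). The sign of its first step turned with 12 arrays. It also turned with the mean of all probe sets of a gene, which includes the Slc4a1 probe set under background.

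Adult beta globin went a different way from the embryonic chains. The probe set 1417184_s_at is annotated with 4 adult beta globin symbols, Hbb-b1, Hbb-b2, Hbb-bs and Hbb-bt. Adult beta globin fills the red cells of adult mice, including the mother. Values below are those of this probe set. The probe set read 8.36 and 8.35 at GD8.5, 6.14, 6.11, 5.93 and 6.23 at GD9.0, and 7.13, 7.20, 7.27 and 7.15 at GD9.5. Its mean fell 4.76-fold in the first interval (-2.25 ± 0.09 SE, limma adjusted p = 7.92e-09) and then rose 2.12-fold (1.08 ± 0.07, adjusted p = 1e-06). This probe set was singled out after its values had been seen. The single-gene probe set of Hbb-b2 above background, 1427865_at, changed by -0.57 ± 0.09 and 0.12 ± 0.08, of which the first passed.

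**Figure D4:**
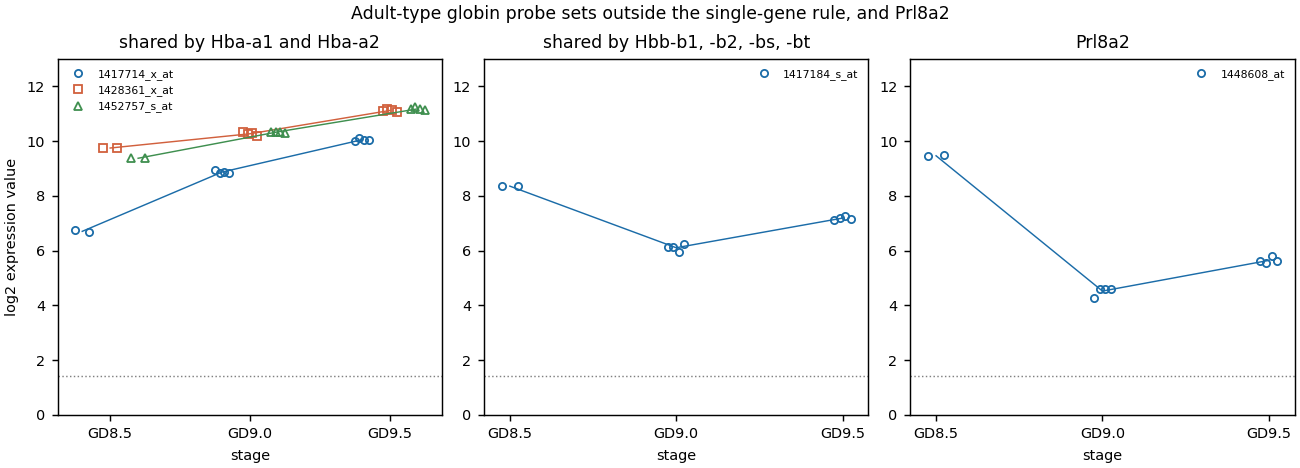
Log2 expression value (vertical axis) in each of the 10 arrays by stage (horizontal axis) for the 3 probe sets shared by Hba-a1 and Hba-a2, the probe set annotated with 4 adult beta globin symbols, and Prl8a2; points are arrays, lines join stage means and the dotted line is the background level. The alpha lines climb, while the adult beta line and Prl8a2 are high at GD8.5, lowest at GD9.0 and intermediate at GD9.5.

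A marker of maternal tissue had the same order of stages. Prl8a2, a decidual member of the prolactin family, had stage means of 9.465, 4.52 and 5.64, changing by -4.945 ± 0.11 SE on the log2 scale and then rising by 1.12 ± 0.09. Of 17 prolactin family genes, a list drawn up after the values had been seen, 5 were above background at some stage, and their summed linear level over all 17 went from 769 to 789 in the GD8.5 arrays to 54.2 to 58.6 in those of GD9.0 and 79.35 to 88.3 in the last. In this list 4 genes fell in the first interval and 1 rose in the second, where 5.64% of all genes fell and 12.6% rose. Prl8a2 is part of the sum and of these counts, so they are not separate from its own change. The part of maternal tissue in the globin values was not tested.

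The labels name the neural tube, and 12 of 14 neural tube markers rose over the day and 0 fell. Of all genes 14.1% rose over the day and 11.5% fell, and these shares stand beside every count of rises and falls given here. Of 16 markers listed for primitive red cells, which include the 8 members, 14 were measured. Of these 10, 11 and 13 lay above background at the 3 stages. Of all 18193 genes, 13018 had a mean over the 10 arrays above background. Nfe2 and Epb42 lay above that level only at GD9.5, at 1.595 and 1.466. Of the markers that are not members, Rhag and Nfe2 rose over the day, and Epor, Epb42, Tal1 and Gfi1b did not pass. Over the day 16 of 17 yolk sac endoderm and 17 of 18 cardiac muscle markers fell, 0 rose, and their summed linear levels went from 2244 to 2294 down to 104 to 108 and from 1503 to 1561 down to 49.4 to 52.0. Of 18 endothelial markers 3 rose and 8 fell (summed 232 to 233, then 204 to 216, then 198 to 208). Of 12 megakaryocyte markers 3 rose and 0 fell (summed 43.6 to 47.0, 58.8 to 60.8 and 102 to 117), and Vwf was under background at every stage. Pf4, platelet factor 4, had stage means of 1.84, 2.32 and 5.14, and Clec1b of 2.21, 4.29 and 5.22. Of the 12 markers 9 did not pass over the day. Itga2b, fixed beforehand beside Pf4, was among these 9 and averaged 3.49, 3.26 and 3.28. Of 14 macrophage markers 1 rose and 1 fell, and 7, with Cd68 and Ptprc among them, were under background at every stage. The array's 18S control probe sets averaged 9.82, 8.81 and 10.3 by stage and the actin 3' minus 5' difference 0.71, 0.56 and 0.93. Both were lowest at GD9.0, as were the adult beta globin probe set and Prl8a2, while the called members were lowest at GD8.5. The part of RNA quality in these results was not tested.

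Other genes of the red cell lineage were counted from 7 lists. The lists, without the members, had 102 measured genes of 124, each taken by its brightest probe set. Over the day 32 were higher, 10 lower and 60 did not pass, with a median log2 change of 0.13, where 14.1% of all genes were higher and 11.5% lower by limma with Benjamini-Hochberg adjustment and the median was -0.016. By interval 12 were higher and 8 lower from GD8.5 to GD9.0 (5.45% and 5.64% of all genes) and 23 higher and 9 lower from GD9.0 to GD9.5 (12.6% and 8.75%). By the same unit, 1 brightest probe set per gene, 6 of the 8 members were higher over the day and 0 lower. All 14 member probe sets gave 11 higher and 0 lower, with a median of 2.05, where 10.4% of all probe sets were higher and 8.96% lower. The members were picked by name with earlier results known, and the difference from the lists was not tested.

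Among red cell membrane genes 8 of 21 rose and 2 fell over the day (14.1% and 11.5% of all genes). Gypc, glycophorin C, rose by 1.15 ± 0.15 SE, Ermap, a membrane protein of erythroid cells, by 1.13 ± 0.13, and Rhag, the Rh-associated glycoprotein, was at least 1.70-fold higher from a GD8.5 level under background. Cd59a, a complement inhibitor (-0.66 ± 0.10), and Tmod1, which caps actin filaments in red cells and heart (-0.49 ± 0.09), fell. Over the day 17 of 18 cardiac muscle markers fell too, and the part of heart tissue in the fall of Tmod1 was not tested.

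In the list of haem synthesis and iron supply 8 of 21 rose and 2 fell over the day (14.1% and 11.5% of all genes). Abcb10, a mitochondrial transporter needed for haem, rose by 1.14 ± 0.07 SE, Slc25a37 (mitoferrin-1), which brings iron into mitochondria, by 0.68 ± 0.07, and Uros, an enzyme of the pathway, by 0.40 ± 0.09. Fth1, the ferritin heavy chain (-0.39 ± 0.06), and Slc25a38, a mitochondrial glycine carrier (-0.27 ± 0.08), fell. Alas1, the housekeeping counterpart of Alas2, was at -0.20 ± 0.10 over the day and did not pass.

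Among genes of haemoglobin support and red cell metabolism 4 of 14 rose and 1 fell over the day (14.1% and 11.5% of all genes). Blvrb, a biliverdin reductase abundant in red cells, rose by 1.76 ± 0.11 SE, Bpgm, which makes 2,3-bisphosphoglycerate, by 0.47 ± 0.07, and Eif2ak1, the haem-regulated kinase, by 0.32 ± 0.08. Cyb5r3, the methaemoglobin reductase, fell (-0.28 ± 0.08). In the maturation list 5 of 14 rose and 0 fell, led by Hemgn, a nuclear protein of blood cells and a known Gata1 target, which went from 1.82 to 2.64 and 4.27 (2.45 ± 0.07 over the day, limma adjusted p = 4.3e-10). Ell2, an elongation factor, rose by 0.94 ± 0.10 and Fam210b, a mitochondrial protein, by 0.87 ± 0.13.

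Of 17 erythroid transcription factors and cofactors 4 rose and 2 fell over the day (14.1% and 11.5% of all genes). Sox6, which silences embryonic globin in definitive cells and is also expressed in neural progenitors, rose by 1.39 ± 0.11 SE, and Myb, a factor of definitive progenitors, by 1.03 ± 0.12. Of 6 markers listed for definitive red cells 3 were measured. Besides Myb these were Hbb-b2, which fell (-0.44 ± 0.09), and Bcl11a, which did not pass (-0.11 ± 0.09). Ikzf1 (Ikaros) was at least 1.31-fold higher, from a GD8.5 level under background. Gata2, of early progenitors, fell (-0.43 ± 0.13), as did Foxo3. Tal1, a partner of Gata1, averaged 3.19, 2.95 and 3.11 and did not pass in any interval.

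Of 11 erythropoietin and Kit signalling genes 3 rose and 2 fell over the day (14.1% and 11.5% of all genes). The kinase genes Pim1 (0.81 ± 0.08 SE) and Jak2 (0.63 ± 0.08) and the feedback inhibitor Socs3 (0.56 ± 0.14) rose, and the receptors Tgfbr3 (-0.92 ± 0.07) and Kit (-0.70 ± 0.12) fell. Epor, the erythropoietin receptor, averaged 3.33, 3.19 and 3.50 and did not pass. In the list of adult globins and globin relatives 1 of 5 measured genes fell, Hbb-b2, and 0 rose.

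**Figure D5:**
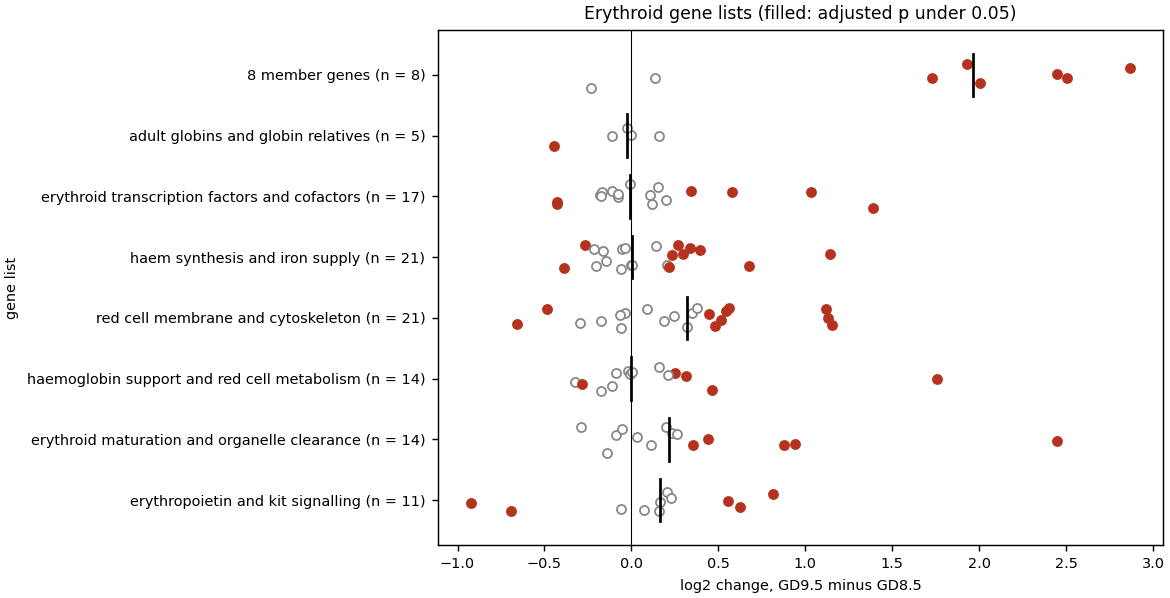
Log2 change from GD8.5 to GD9.5 (horizontal axis) of each gene in the 8 members and in 7 erythroid lists (vertical axis), by the brightest probe set of a gene; points are genes, filled where the adjusted p is under 0.05, and bars are medians. The members lie in a group between 1.73 and 2.87 apart from Hba-a1 and Gata1, while most genes of the other lists lie around 0, with Hemgn at 2.45 and Blvrb at 1.76 farthest out.

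Profiles were also set side by side over the 10 arrays, each centred on its own mean, with the root mean square difference on the log2 scale as the measure of likeness among 13017 genes above background (13018 for Hba-a1). Each gene was taken by its brightest probe set, which for Hbb-y was 1436717_x_at. By these probe sets Hba-x and Hbb-y, which lie in different globin clusters, were each other's closest gene, at 0.065. The Hbb-y probe set 1450621_a_at was not compared here. It rose by 2.96 and 1.33 on the log2 scale in the 2 intervals, against 1.95 and 0.55 for Hba-x. Next to Hba-x came Col3a1, a collagen (0.105), and Wnt8b, a brain Wnt ligand (0.118), and next to Hbb-y the factors Dmrta2 (0.104) and Zfhx4 (0.110). Closest to Hbb-bh1 were Hspa4l, En2 and Ptprn2 (0.090 to 0.098), and closest to Slc4a1 were Pou3f4, Gpm6b and Tagln3 (0.096 to 0.18).

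Other red cell genes were counted among the close profiles. Among the 20 closest genes, other members or genes of the erythroid lists made up 1 for Hba-x, 2 for Hbb-y, 0 for Hbb-bh1, 0 for Slc4a1, 2 for Klf1 and 2 for Alas2, where 101 of the 13017 candidates were such genes. Blvrb was in place 3 for Alas2 (0.16), after Fam181a (0.12) and Rtn1 (0.145), and in place 7 for Klf1, whose closest genes were Gabrb2, Mfsd2a and 2510009E07Rik (0.14 to 0.18). Gata1 was closest to Uhrf1, Chmp1b and Cenpc1 (0.040 to 0.045). The Hba-a1 probe set, being under background, has a profile that is no measure of the gene, and its closest genes were Get3, Pcyt1b and Mafg (0.043 to 0.054).

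The linear GD8.5 arrays, left out of the fit, were set beside the others by percentile. Hba-x lay at percentiles 95.02 and 95.1 of probe sets in the linear arrays and at 94.3 and 94.0 in replicates 3 and 4, against 98.45 to 98.6 at GD9.0. For 11 of the 11 probe sets that rose, all 4 GD8.5 arrays lay at lower percentiles than every GD9.0 array, and every GD9.0 array lower than every GD9.5 array. Gata1 lay at 63.1 and 53.0 in the linear arrays, above its 41.1 to 51.7 in the other 10. The members of low signal differed more between the linear and the log2 arrays of GD8.5 than Hba-x did. Klf1 lay at 54.0 and 46.3 in the linear arrays against 64.2 and 60.4 in replicates 3 and 4. For Alas2 these percentiles were 54.15 and 32.3 against 58.2 and 48.7.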

How the data were processed

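Messenger RNA was measured on 12 Affymetrix arrays, 4 labelled replicates at each of 3 stages. RMA, GCRMA and Expression Console 1.2.1 of Affymetrix are listed in the submitters' processing notes, which give them no role. The deposited values of 10 arrays are log2 expression values that the authors normalized across arrays, judged from their near-equal distributions, and those of GD8.5 replicates 1 and 2 are deposited intensities on a linear scale. Only the 10 log2 arrays were fitted. Their number limits the precision, and no depth applies.

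Members and lists were chosen with earlier results of these data known. Genes came from the platform annotation. Of 45037 probe sets without controls, 34945 named 1 gene, 932 several and 9160 none, and the brightest probe set stood for a gene in the lists. limma 3.58.1 in R 4.3.3 fitted a mean per stage to all probe sets (7 residual degrees of freedom, prior 4.66), with Benjamini-Hochberg adjustment at 0.05. Errors are standard errors of this fit unless given as SD. A fold against a level under background is a bound. Alternatives covered scaling, all 12 arrays, probe set choice, the spread model, the replicate number as a block and each array left out. Named genes are all members, up to 3 rises and 3 falls per list over the day, the 3 closest profiles per member and fixed markers. On simulated data of 45037 probe sets the fit recovered 84%, 94% and 82% of 2-fold changes, and 44%, 68% and 48% of 1.5-fold changes, for the first interval, the second interval and the whole day. Protein sequences were not used here.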

Additional observations from a re-analysis of the deposited data

Results flagged for a closer look

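The second interval differed from the first, by a limma contrast of the intervals with Benjamini-Hochberg adjustment, for 9 globin probe sets. The second rise was smaller for Hba-x 1448716_at (-1.40 ± 0.10 SE on the log2 scale, adjusted p = 9.67e-06), for Hbb-y 1436717_x_at (-1.23), 1436823_x_at (-1.41) and 1450621_a_at (-1.63), for Hbb-bh1 1437810_a_at (-0.64), 1437990_x_at (-0.56) and 1450736_a_at (-0.64), and for 1 probe set shared by Hba-a1 and Hba-a2, 1417714_x_at (-0.98 ± 0.11). The other probe sets shared by Hba-a1 and Hba-a2 did not pass this contrast, with 1428361_x_at at 0.32 (adjusted p = 0.089) and 1452757_s_at at -0.11 (adjusted p = 0.606). The adult beta globin probe set 1417184_s_at went the other way, at 3.34 ± 0.13 (adjusted p = 1.26e-07), since it fell in the first interval and rose in the second. The single-gene probe set of Hbb-b2, 1427865_at, also differed, by 0.69 ± 0.14 (adjusted p = 0.0123). No array stood apart from the other 3 of its stage in any of the 28 member groups of 4 arrays that were tested, where chance marks about 1 in 20 groups.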

How the results depend on the processing

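The 11 higher probe sets of each interval and of the whole day, and the 7 with a smaller second rise, were counted again under every alternative. Leaving out each array in turn gave 11, 11, 11 and 7 throughout, as did median centring, repeated quantile normalization, the intensity trend, the filter on dim probe sets and leaving out the probe sets at background. Fits of the 2 stages alone, which have no interval contrast, gave 11, 11 and 11. Without either GD8.5 array, the lone array left there is assumed to vary like those of the other stages. With the replicate block the counts were also 11, 11, 11 and 7, so the block changed no call. Same-numbered arrays correlated in their deviations by -0.045 to 0.12 (8 pairs) and others by -0.13 to 0.13, so the numbers were not taken to pair the samples. With 1 brightest probe set per gene, which leaves 8, the counts were 6, 6 and 6 higher and 3 with a smaller second rise, and 1 probe set, that of Hba-a1 under background, was lower over the day, as with array weights (1). With 12 arrays 10 probe sets were higher in the second interval, Klf1 being lost. Over all probe sets the calls of the first interval fell from 1929 higher and 1658 lower to 899 and 968 without GD8.5 replicate 4 and to 1124 and 980 without replicate 3, and those of the second from 4020 and 3647 to 1710 and 1583 with 12 arrays. For the interval contrast, 1707 higher and 1584 lower became 722 and 523 with 12 arrays and 2583 and 2721 with the intensity trend. With 1 probe set per gene, of 18193, the calls were 1233 higher in the first interval, 2561 higher and 1868 lower in the second, 2820 and 2389 over the day and 850 lower for the contrast. Over the day, 4666 higher and 4034 lower became 2925 and 2521 without GD8.5 replicate 4, and 2550 lower without replicate 3. The contrast gave 1053 and 963 without GD8.5 replicate 3, 1132 and 834 without replicate 4, and 1029 lower without GD9.0 replicate 3.

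With 12 arrays more pair differences passed, at an adjusted exact permutation p of 0.0381. Comparisons with GD8.5 are then 4 against 4 arrays, which allows smaller p-values, while those of the second interval keep the same 4 against 4, and there the normalized values and the adjustment changed. Those that passed were Hbb-y minus Hbb-bh1 at 0.57, -0.14 and 0.43 (first interval, second interval, whole day), Klf1 minus Gata1 at 1.83 in the first step and 2.21 over the day, and Slc4a1 minus Klf1 at 0.85 in the second step. The first step of Klf1 minus Gata1 was 1.11 with 10 arrays. In the linear arrays Gata1, barely above background, lay at percentiles 63.1 and 53.0 against 45.8 and 41.1 in replicates 3 and 4. Klf1 lay lower there, at 54.0 and 46.3 against 64.2 and 60.4. The part of the linear arrays in this pair was not tested. Hba-a1 minus Hba-x, at -2.105, -0.53 and -2.633, also fell under the threshold, but rests on a probe set under background and says nothing of Hba-a1. The first step of Slc4a1 minus Klf1 turned to -0.19 with 12 arrays and to -0.14 with the mean of probe sets, which includes the Slc4a1 probe set under background. In place of the Hba-a1 probe set, the shared probe sets turned the Hba-a1 minus Hba-x change to 0.64, 0.30 and 0.30 in the second step and, for 1417714_x_at, to 0.21 in the first and 0.85 over the day. The stage mean rose at both steps for 12 probe sets on the log2 scale and for 11 by percentile rank in 12 arrays. The cause of these differences was not tested.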
